A study of Homo sapiens with 12 samples.

Results

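The genes described here are 9 enzymes that make or use isocitrate and 2-oxoglutarate: IDH1, IDH2, IDH3A, IDH3B, IDH3G, ACO1, OGDH, GLUD1 and D2HGDH. They are 9 of the 54127 gene identifiers in the files and 9 of the 14501 genes that passed the expression filter, each with at least 201 reads in every library. The set was chosen on values of these same libraries, because IDH2 RNA fell about as far as the RNA that the siRNA targeted. The values of IDH2 are therefore given as a description without a test. The other 8 were tested in a fit over all 14501 genes.

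C4-2 cells, a human castration-resistant prostate cancer line derived from LNCaP, were reverse-transfected with 50 nM of an siRNA pool against CHKA (siCHKA) or with nontargeting siRNA (siNT), in 6 samples each, and their polyadenylated RNA was sequenced. CHKA, choline kinase alpha, catalyses the first step of the Kennedy pathway of phosphatidylcholine synthesis, and the comparison addresses which RNAs change when it is depleted. Both groups are the same cell line, received siRNA and were grown in RPMI with serum. Each condition was made with a single siRNA reagent, and the extraction notes speak of flow sorted cells without saying what they were sorted on. The 6 samples of a group are called replicates, but the labels do not say that they came from separate cultures. The paper speaks of 6 biological replicates for some plots of the knockdown data and of biological triplicates for others. How the 6 samples map onto these is not given, so the p-values may measure technical spread.

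Isocitrate dehydrogenases convert isocitrate to 2-oxoglutarate. IDH1 does so in the cytosol and peroxisomes and IDH2 in mitochondria, both with NADP, and both reactions yield NADPH and can run in reverse. IDH3 is the NAD-linked enzyme of the tricarboxylic acid (TCA) cycle, and its subunits are encoded by IDH3A (catalytic), IDH3B and IDH3G (both needed for full activity). Aconitases supply isocitrate from citrate, OGDH carries 2-oxoglutarate on through the cycle, GLUD1 exchanges it with glutamate, and D2HGDH recovers it from D-2-hydroxyglutarate, the metabolite that cancer-associated mutants of IDH1 and IDH2 overproduce. Glutarate is a product of lysine breakdown and is handled by enzymes next to these.

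The libraries held 10685184 to 24246055 reads on genes, so that 3 counts correspond to 0.124 to 0.281 CPM (the usual read count relative to library size, with TMM scaling). The share of uniquely aligned reads that fell outside genes was 6.70% to 8.54% in siCHKA and 5.49% to 6.63% in siNT. These ranges did not overlap, and their part in the results was not tested. The luminal prostate markers KLK3, TMPRSS2, HOXB13, FOLH1, KRT8, KRT18 and EPCAM were detected in every library, with KLK3, which encodes prostate-specific antigen, the most abundant of them at 1726 to 2747 CPM in siCHKA and 2782 to 3811 CPM in siNT. Of the markers measured for other cell types, CD3E was at 0 in all 12 libraries. KRT5, TP63, COL1A2, DCN and PTPRC stayed below 0.27 CPM, and the others reached more. The highest library of COL3A1 was at 0.642 CPM and that of VWF at 3.65 CPM, both in siNT. The highest library of ACTA2 was at 1.13 CPM, of KRT14 at 2.09 CPM and of CD68 at 5.97 CPM, all in siCHKA. COL1A1 was the most abundant of these markers in both groups. The 5 stromal markers summed to 25.2 to 31.7 CPM in siCHKA and 11.9 to 19.6 CPM in siNT, nearly all of it COL1A1. The 3 basal markers summed to 1.57 to 2.10 CPM and 0.981 to 1.46 CPM, and the leukocyte and endothelial markers measured to 5.16 to 7.75 CPM and 4.70 to 7.19 CPM. The part of these markers in the results was not tested.

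The siCHKA libraries fell into sets by replicate number. Replicates 1, 3 and 5 differed from each other by a root mean square of 0.241 to 0.277 on the log2 scale and replicates 2, 4 and 6 by 0.220 to 0.229, while odd against even numbers gave 0.309 to 0.395. The siNT libraries showed no such split, with 0.255 to 0.379 between odd and even numbers and 0.288 to 0.363 within them. The labels give no batch that separates odd from even numbers. Values for each set are given below for the members, in the text or in a figure, and for CHKA. The named list genes and the neighbours of IDH2 are given over all 6 replicates only.

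The targeted RNA was low in every siCHKA library. CHKA ranged from 1.91 to 4.67 CPM with a median of 2.31 in siCHKA, and from 36.7 to 43.3 CPM with a median of 41.6 in siNT, on 29 to 87 and 377 to 964 reads. The groups were far apart, and 6.76% of the mean siNT level remained (log2 fold change -3.88, SE 0.14, edgeR quasi-likelihood test, adjusted p = 5.89e-13).

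IDH2 (ENSG00000182054) lies on the minus strand of chromosome 15, at chr15:90083045-90102477 in GRCh38, and shares no exon base with another annotated gene. Its level was 16.8 to 19.4 CPM with a median of 17.9 in siCHKA, and 276 to 316 CPM with a median of 285 in siNT. Every siCHKA library was far below every siNT library. The mean was 17.9 ± 0.981 CPM (SD, n = 6) against 290 ± 14.2 CPM (SD, n = 6), which leaves 6.18% of the siNT level and makes the siNT level 16.2-fold higher. These values rest on 240 to 387 reads in siCHKA and 2908 to 6717 in siNT, well above the 3-count floor. The log2 fold change was -4.02 (SE 0.056), and 2 of the 14501 genes, IDH2 included, lay as low as that or lower. In bulk RNA, fewer cells with the transcript and less of it per cell cannot be told apart.

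The amount of IDH2 RNA left was more even between libraries than that of CHKA. In siCHKA replicates 1 to 6, IDH2 stood at 5.83%, 6.08%, 6.26%, 5.81%, 6.69% and 6.39% of the mean siNT level. CHKA stood at 5.28%, 7.82%, 4.69%, 11.5%, 5.75% and 5.58% in the same order. The highest of the 6 values was 1.15 times the lowest for IDH2 and 2.44 times for CHKA, and replicate 4, which kept the most CHKA RNA, did not keep the most IDH2 RNA. The CHKA values rest on 29 to 87 reads, so part of their wider spread is counting error. In replicates 1, 3 and 5 the log2 fold change was -3.97 for IDH2 and -4.28 for CHKA, and in replicates 2, 4 and 6 it was -4.07 for IDH2 and -3.60 for CHKA.

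**Figure D1:**
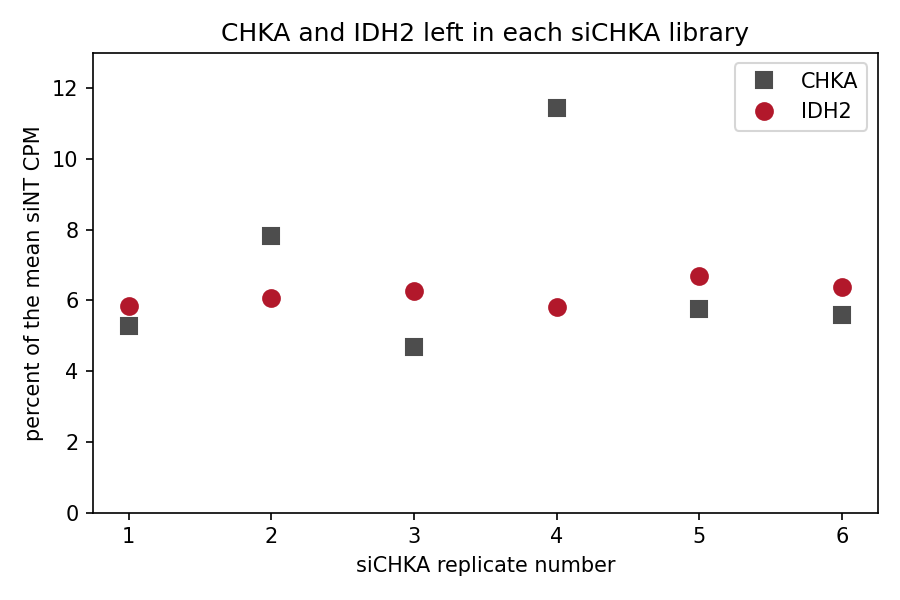
Level of CHKA (squares) and IDH2 (circles) in each of the 6 siCHKA libraries, as a percent of the mean siNT CPM of the same gene (y axis) against replicate number (x axis). IDH2 lies between 5.81% and 6.69% in all 6 libraries, while CHKA ranges from 4.69% to 11.5%.

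Among the other 8 members, 3 were lower after siCHKA (IDH1, IDH3A and OGDH), 3 were higher (IDH3G, GLUD1 and D2HGDH) and 2 were not called (IDH3B and ACO1) at an adjusted p below 0.05. Of all genes tested, 30.1% were lower and 32.1% higher by the same rule, so 3 of 8 in each direction is near the background. For 4 of the 8 (IDH1, IDH3A, IDH3G and D2HGDH) no siCHKA library overlapped any siNT library, as was so for 40.6% of all genes tested. The median log2 fold change of all genes tested was 0.035. In replicates 1, 3 and 5 alone 2 members were called lower, without OGDH, and 3 higher, with ACO1 in place of GLUD1. Of all genes, 4114 were called lower and 4181 higher in that fit. In replicates 2, 4 and 6 alone 3 members were lower and 2 higher, without GLUD1, beside 4275 and 4154 of all genes. How many genes were tested in the odd and even fits is not given here. These counts therefore give no background share for the member calls.

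**Figure D2:**
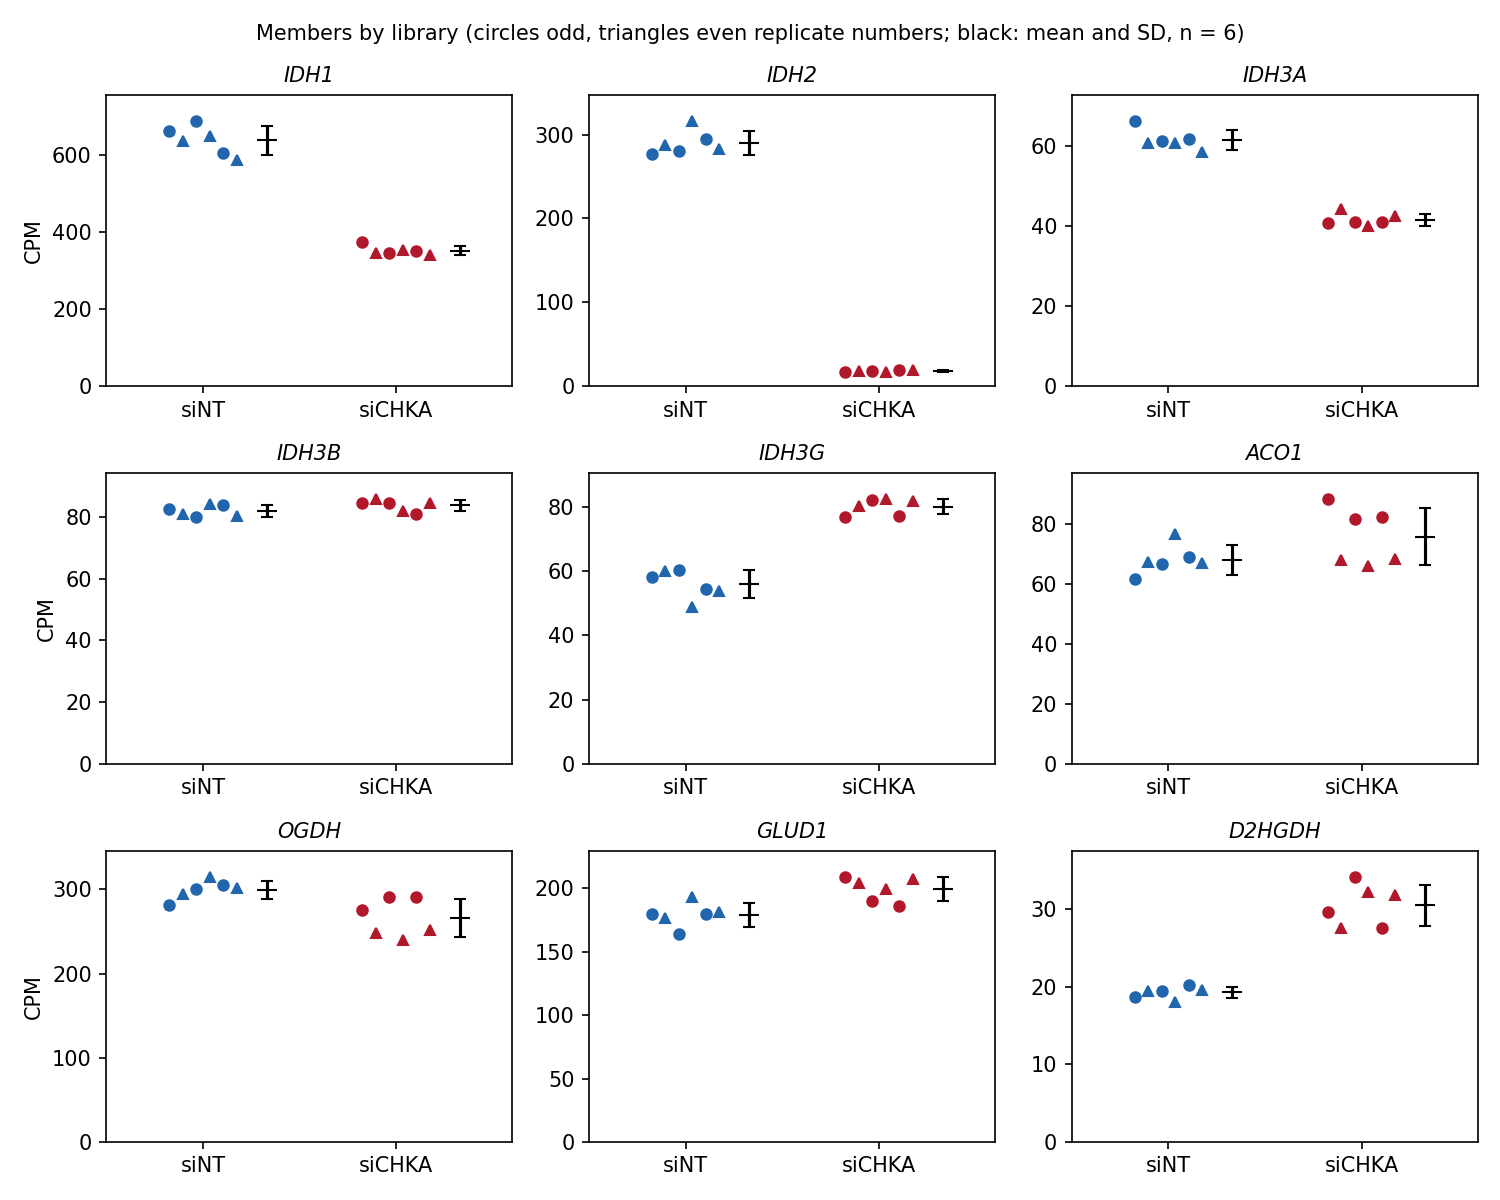
CPM (y axis, from 0) of the 9 members in the 6 siNT (blue) and 6 siCHKA (red) libraries, with circles for odd and triangles for even replicate numbers and the mean and SD in black. The siCHKA points of IDH2 lie at 16.8 to 19.4 CPM against 276 to 316 CPM in siNT, and in ACO1 and OGDH the siCHKA circles lie above the siCHKA triangles.

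IDH1, the cytosolic counterpart of IDH2, fell less far. Its level was 340 to 374 CPM with a median of 349 in siCHKA, and 587 to 688 CPM with a median of 645 in siNT, so the groups did not overlap. The mean siCHKA level was 55.1% of the siNT mean (log2 fold change -0.86, SE 0.051, edgeR adjusted p = 1.87e-10). A fold change this low or lower was seen in 6.14% of the genes tested. It was -0.87 in the odd-numbered and -0.86 in the even-numbered replicates.

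The subunits of the NAD-linked enzyme moved apart. IDH3A, the catalytic subunit, was at 39.95 to 44.2 CPM with a median of 40.9 in siCHKA and at 58.5 to 66.1 CPM with a median of 61.0 in siNT. It fell to 67.5% of the siNT mean (log2 fold change -0.57, SE 0.045, edgeR adjusted p = 1.11e-08). IDH3G, a regulatory subunit, went the other way, from 48.8 to 60.3 CPM with a median of 56.2 in siNT to 76.8 to 82.2 CPM with a median of 81.0 in siCHKA. It rose to 143% of the siNT mean (log2 fold change 0.52, SE 0.054, edgeR adjusted p = 2.68e-07). For both subunits the groups did not overlap. IDH3B, the remaining subunit, stood at 81.0 to 85.7 CPM with a median of 84.6 in siCHKA and 79.9 to 84.1 CPM with a median of 81.7 in siNT. The IDH3B groups overlapped, with a log2 fold change of 0.031 (SE 0.039, edgeR adjusted p = 0.501) and the smallest spread of the 9 members, a coefficient of variation of 2.18% in siCHKA and 2.22% in siNT.

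Ratios of subunits within a library do not depend on the scaling between libraries. The log2 ratio of IDH3A to IDH3B CPM ranged from -1.06 to -0.95 in siCHKA and from -0.47 to -0.32 in siNT, and its mean was 0.60 lower after siCHKA, a 0.661-fold ratio. For IDH3A to IDH3G it ranged from -1.04 to -0.86 and from 0.015 to 0.32, with a ratio after siCHKA of 0.471-fold the siNT ratio. For IDH3B to IDH3G it ranged from -0.0047 to 0.14 and from 0.41 to 0.78, at 0.712-fold. In none of the 3 ratios did the groups overlap, and each gave p = 0.00216 in a two-sided exact permutation test (n = 6 per group), which is the smallest value this design can give and stayed 0.00216 after Benjamini-Hochberg adjustment over the 3 ratios. The 3 ratios share their subunits and are not independent of each other or of the fold changes above. Of all single genes tested, 40.6% also had groups that did not overlap. No such share was taken for ratios of other gene pairs, so how common such a separation is among ratios is not known. Of the annotated exon bases, 38.8% of those of IDH3A also belong to CIB2 or ACSBG1 and 9.89% of those of IDH3G to SSR4, and reads that fall on more than 1 gene were set aside by the counting.

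D2HGDH, the mitochondrial enzyme that oxidises D-2-hydroxyglutarate back to 2-oxoglutarate, had the largest rise among the members. It was measured at 27.5 to 34.0 CPM with a median of 30.7 in siCHKA and at 18.0 to 20.2 CPM with a median of 19.5 in siNT, without overlap. The mean was 158% of the siNT mean (log2 fold change 0.66, SE 0.064, edgeR adjusted p = 1.07e-07). It was 0.65 in the odd-numbered and 0.67 in the even-numbered replicates. Of its annotated exon bases 18.6% are shared with other genes.

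The other enzymes that act on these metabolites changed little, and ACO1 and OGDH differed between the odd- and even-numbered siCHKA libraries. ACO1, the cytosolic aconitase that doubles as an iron-responsive RNA-binding protein, was at 66.1 to 88.1 CPM with a median of 75.0 in siCHKA and 61.6 to 76.6 CPM with a median of 67.1 in siNT. The groups overlapped (log2 fold change 0.15, SE 0.075, edgeR adjusted p = 0.0861). In siCHKA replicates 1, 3 and 5 ACO1 was at 81.7 to 88.1 CPM and in replicates 2, 4 and 6 at 66.1 to 68.3 CPM. The log2 fold change was 0.36 in the odd-numbered replicates (edgeR adjusted p = 0.000356) and -0.068 in the even-numbered ones (adjusted p = 0.428). Without siCHKA replicate 2 it was 0.18 (adjusted p = 0.0480), and without siCHKA replicate 4 it was 0.19 (adjusted p = 0.0368).

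OGDH, the E1 subunit of the 2-oxoglutarate dehydrogenase complex, was at 239 to 291 CPM with a median of 263 in siCHKA and 282 to 314 CPM with a median of 301 in siNT. It fell to 88.8% of the siNT mean with overlapping groups (log2 fold change -0.17, SE 0.057, edgeR adjusted p = 0.0145). The odd-numbered siCHKA libraries lay at 275 to 291 CPM and the even-numbered at 239 to 252 CPM. The log2 fold change was -0.050 in odd-numbered replicates (adjusted p = 0.536) and -0.31 in even-numbered ones (adjusted p = 0.00111). The other OGDH complex subunits were DLST at 191 ± 5.51 CPM against 193 ± 6.34 CPM (SD, n = 6 each, edgeR adjusted p = 0.698) and DLD, which rose with a log2 fold change of 0.13 (edgeR adjusted p = 0.0253). DLST and DLD were picked out after their values were seen.

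GLUD1, mitochondrial glutamate dehydrogenase, was at 186 to 209 CPM with a median of 202 in siCHKA and 164 to 193 CPM with a median of 180 in siNT, and the groups overlapped. It rose to 111% of the siNT mean (log2 fold change 0.15, SE 0.050, edgeR adjusted p = 0.0123). The call was lost in either set of replicates alone (0.16, adjusted p = 0.0552 in odd-numbered and 0.14, adjusted p = 0.0721 in even-numbered ones). GLUD1 has near-identical copies in the genome, and reads that align to more than 1 place were not counted, so its level is less sure.

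**Figure D3:**
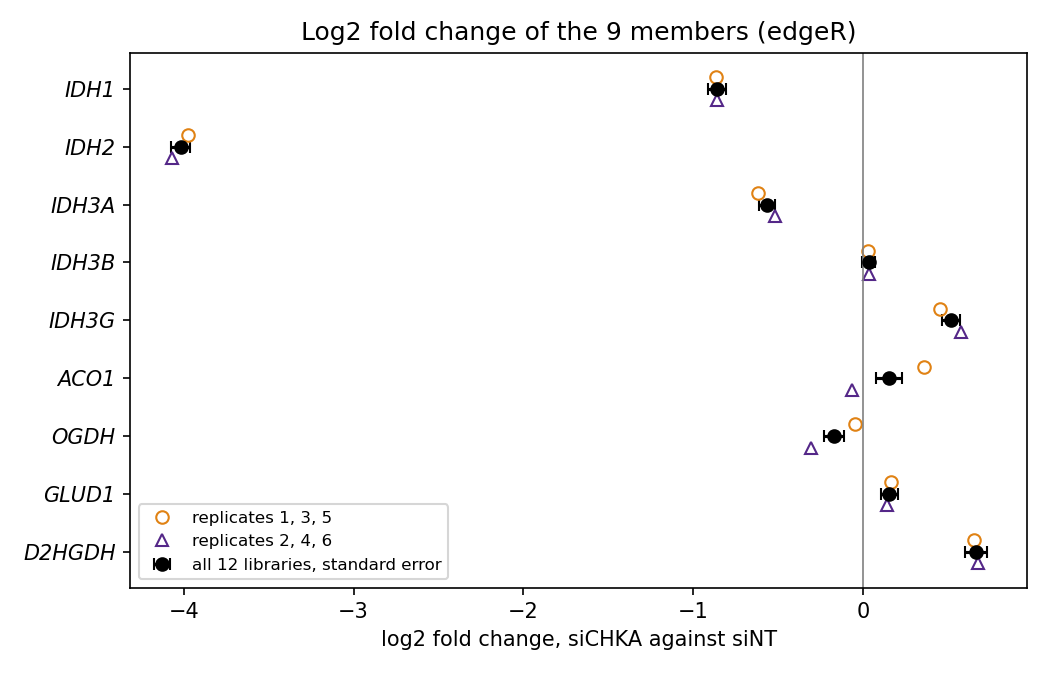
Log2 fold change of siCHKA against siNT (x axis) for each of the 9 members, from all 12 libraries (black, with standard error) and from odd-numbered (open circles) and even-numbered replicates (open triangles) alone. IDH2 stands apart at -4.02, IDH1 follows at -0.86, and ACO1 lies at 0.36 in odd-numbered and -0.068 in even-numbered replicates.

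Levels of different genes were compared per length, as CPM per kilobase of merged exons (FPKM). In siNT the order was IDH1 at 136 ± 7.92 FPKM, IDH2 at 104 ± 5.09, OGDH at 57.5 ± 2.07, IDH3B at 31.9 ± 0.709, IDH3G at 20.7 ± 1.64, GLUD1 at 12.5 ± 0.660, IDH3A at 9.01 ± 0.366, ACO1 just under it with libraries from 8.16 to 10.1, and D2HGDH at 3.66 ± 0.143 (SD, n = 6). Neighbours in that order did not overlap between libraries except IDH3A and ACO1. In siCHKA the order was IDH1 at 74.9 ± 2.51 FPKM, OGDH at 51.1 ± 4.34, IDH3B at 32.6 ± 0.712, IDH3G at 29.6 ± 0.908, GLUD1 at 14.0 ± 0.662, ACO1 at 10.0 ± 1.24, IDH2 at 6.42 ± 0.352, IDH3A at 6.08 ± 0.226 and D2HGDH at 5.79 ± 0.506. There IDH2, IDH3A and D2HGDH overlapped one another. IDH2 thus moved from rank 2 of the 9 in siNT to rank 7 in siCHKA, or to rank 9 where the length of the longest coding transcript was used.

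Among the isocitrate dehydrogenases, the mitochondrial NADP enzyme went from the second most abundant RNA to one of the least. IDH2 made up 34.5% ± 1.61 of the summed FPKM of the 5 IDH genes in siNT and 4.29% ± 0.276 in siCHKA (SD, n = 6). IDH1 made up 45.1% ± 1.55 in siNT and 50.0% ± 1.20 in siCHKA. The ratio of IDH1 to IDH2 FPKM was 1.31 ± 0.106 in siNT and 11.7 ± 0.925 in siCHKA. The summed FPKM of IDH1 and IDH2 was 240 ± 8.97 in siNT and 81.3 ± 2.34 in siCHKA. The mean FPKM of the 3 IDH3 subunits was 0.198 ± 0.0128 times that of IDH2 in siNT and 3.56 ± 0.216 times in siCHKA. With the longest coding transcript as length, the IDH2 share was 23.1% in siNT and 2.57% in siCHKA, and the IDH1 share was 55.5% and 55.0%, so that IDH1 gained share only with merged exons. By that length the ratio of IDH1 to IDH2 was 2.41 and 21.5, the sum of IDH1 and IDH2 was 371 and 151 FPKM, and the ratio of the IDH3 mean to IDH2 was 0.309 and 5.52. These shares contain the IDH2 values that chose the set and carry no test.

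**Figure D4:**
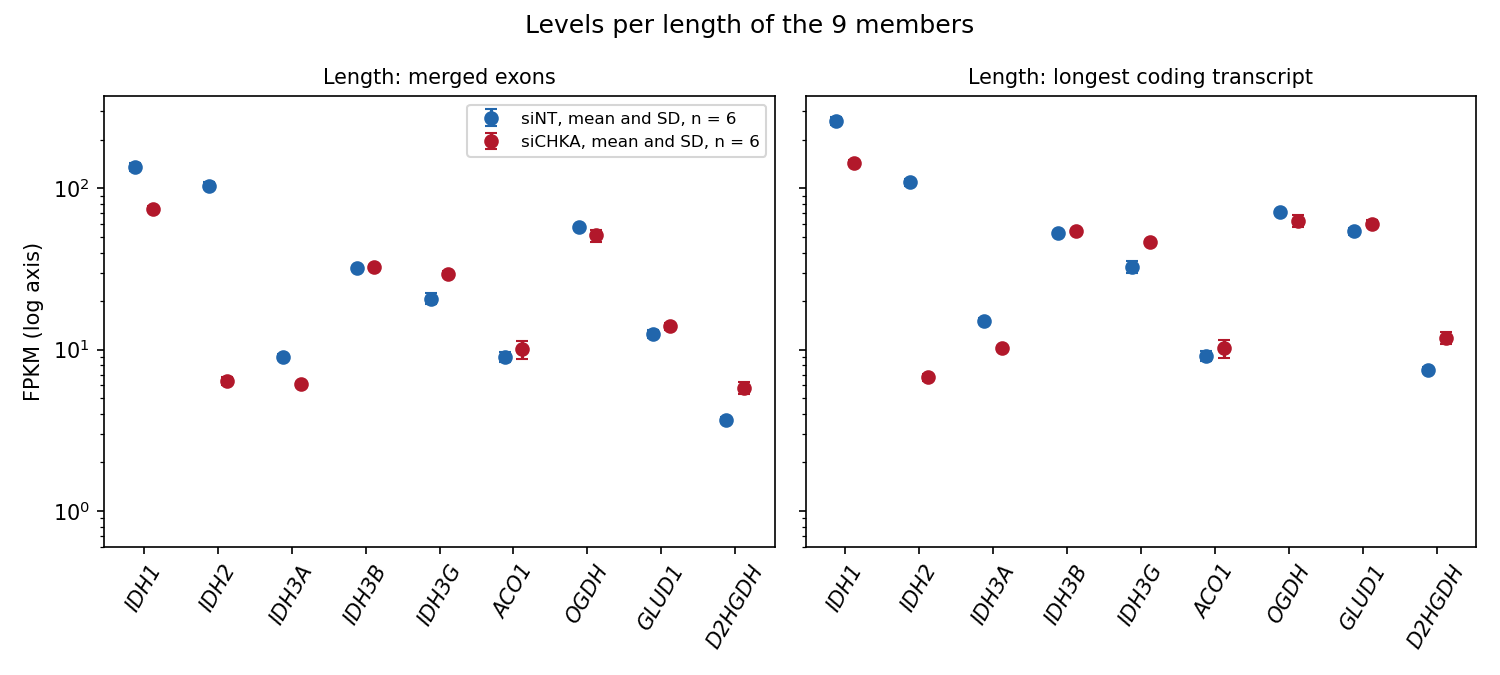
Level per length in FPKM (log axis) of the 9 members in siNT (blue) and siCHKA (red), as mean and SD of 6 libraries, with merged exons (left) or the longest coding transcript (right) as length. IDH2 drops from 104 to 6.42 FPKM in the left panel, and GLUD1 changes place between the panels, because its merged exons span 14283 bases and its longest coding transcript 3300.

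The remaining genes of the pathway were read from lists of other enzymes. Of 23 TCA cycle and pyruvate entry genes tested, 7 (30.4%) were lower, 6 (26.1%) higher and 10 not called, beside 30.1% and 32.1% of all genes tested, with a median log2 fold change of 0.016 (all genes tested 0.035). DLAT, the E2 subunit of pyruvate dehydrogenase, fell by 0.71 on the log2 scale (302 ± 16.3 CPM in siNT and 185 ± 12.2 in siCHKA, SD, n = 6, edgeR adjusted p = 6.22e-09). SDHD, a membrane anchor of succinate dehydrogenase, fell by 0.34, PC, pyruvate carboxylase, fell by 0.30, and CS, citrate synthase, fell by 0.28. The rises were of like size, with 0.37 for OGDHL, an OGDH paralog, 0.34 for DHTKD1, the 2-oxoadipate dehydrogenase of lysine breakdown, 0.34 for MDH2, mitochondrial malate dehydrogenase, and 0.30 for MPC1, a mitochondrial pyruvate carrier subunit.

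Of 25 genes of glutamate and 2-oxoglutarate exchange tested, 5 (20%) were lower, 8 (32%) higher and 12 not called, against 30.1% and 32.1% of all genes, with a median of -0.038. GLUD2 was below the filter. The largest of the named falls was in AADAT, a mitochondrial aminotransferase that uses 2-oxoglutarate in lysine and kynurenine breakdown, at 155 to 177 CPM in siNT and 54.9 to 80.1 CPM in siCHKA (log2 fold change -1.34, SE 0.092, edgeR adjusted p = 1.44e-09). GOT1, the cytosolic aspartate aminotransferase, fell by 0.50, GLUL, glutamine synthetase, fell by 0.38, and SLC25A11, the mitochondrial 2-oxoglutarate/malate carrier, fell by 0.34 on the log2 scale. OAT, ornithine aminotransferase, rose by 0.86, GPT, alanine aminotransferase, by 0.75, ABAT, GABA aminotransferase, by 0.62, and ALDH5A1, succinic semialdehyde dehydrogenase, by 0.35. The aminotransferases thus included both falls and rises.

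Of 10 genes of 2-hydroxyglutarate and glutarate handling tested, 6 (60%) were higher, 3 (30%) lower and 1 not called, against 32.1% higher and 30.1% lower over all genes, with a median of 0.27. ADHFE1 was below the filter. SUGCT, which activates glutarate to glutaryl-CoA, was at 2.42 to 4.19 CPM in siNT and 7.91 to 10.5 CPM in siCHKA (log2 fold change 1.38, SE 0.13, edgeR adjusted p = 5.88e-08). ETFDH, which passes electrons from D2HGDH and glutaryl-CoA dehydrogenase to ubiquinone through the electron transfer flavoprotein, rose from 66.3 to 69.2 CPM in siNT to 103 to 117 CPM in siCHKA (log2 fold change 0.67, SE 0.045, adjusted p = 1.11e-09). Of the electron transfer flavoprotein subunits, ETFB rose by 0.31 and ETFA fell by 0.19. AASS, the first enzyme of lysine breakdown by the saccharopine route, rose by 0.47. PHGDH fell by 0.30 and LDHB by 0.21, and both are dehydrogenases that can form 2-hydroxyglutarate as a side reaction.

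Of 13 tested genes listed under NADPH supply, 7 (53.8%) were lower, 4 (30.8%) higher and 2 not called. Over all genes the shares were 30.1% and 32.1%. The median of the list was -0.28. ME3 and ALDH1L1 were below the filter. PGD, 6-phosphogluconate dehydrogenase of the pentose phosphate pathway, was at 240 to 266 CPM in siNT and 93.9 to 120 CPM in siCHKA (log2 fold change -1.30, SE 0.061, edgeR adjusted p = 1.15e-11). MTHFD1, the cytosolic folate enzyme, fell by 0.63, NADK, NAD kinase, fell by 0.60, and SHMT2, mitochondrial serine hydroxymethyltransferase, fell by 0.53 on the log2 scale. The named rises were MTHFD2L at 0.84 and ALDH1L2 at 0.46, both mitochondrial folate enzymes. The others were FDXR, ferredoxin reductase, at 0.20 and ME2, a mitochondrial malic enzyme, at 0.19. FDXR uses NADPH and ME2 works mainly with NAD, so not every listed gene supplies NADPH. This list had the lowest median of the 5, and no test of the list as a whole was made.

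Of 47 dioxygenases that use 2-oxoglutarate as a cosubstrate, 19 (40.4%) were higher, 11 (23.4%) lower and 17 not called, against 32.1% higher and 30.1% lower over all genes, with a median of 0.10. RIOX1, BBOX1 and TMLHE were below the filter, and EGLN2 had no matching identifier. PHYH, the peroxisomal phytanoyl-CoA hydroxylase, rose from 52.5 to 62.5 CPM in siNT to 109 to 141 CPM in siCHKA (log2 fold change 1.15, SE 0.064, edgeR adjusted p = 9.95e-11). The histone demethylases KDM5B and KDM6B rose by 0.95 and 0.53, and the mitochondrial ALKBH7 rose by 0.71. The prolyl hydroxylases EGLN3 and EGLN1, which mark hypoxia-inducible factor for degradation, fell by 1.23 and 0.89 on the log2 scale. ALKBH8, a transfer RNA-modifying enzyme, fell by 1.32 and OGFOD1, a ribosomal protein hydroxylase, fell by 0.56. Over the 5 lists, 33 of 118 genes (28.0%) were lower and 43 (36.4%) higher, near the 30.1% and 32.1% of all genes, with a median of 0.031.

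The position of IDH2 on the chromosome was examined next. Of the 5 tested genes nearest on each side, 2 were lower, 2 higher and 6 not called, against the background of 30.1% and 32.1%. ZNF710, on the opposite strand, ends 839 bases beyond the end of IDH2, so that the genes lie tail to tail, and it fell from a mean of 26.5 to 14.8 CPM (log2 fold change -0.84, SE 0.066, edgeR adjusted p = 9.98e-09). NGRN fell by 0.40, while MESP1 rose by 0.46 and GDPGP1 rose by 0.47. SEMA4B, the nearest tested gene on the other side at 58127 bases, was at a log2 fold change of -0.011 (edgeR, adjusted p = 0.887). The values of ARPIN, AP3S2, MESP2, CIB1 and TTLL13 ranged from -0.15 to 0.49 without a call. No neighbour lay near -4.02. The part of ZNF710 reads in the IDH2 value was not tested, and whether the counting used strand is not given in the sources used here.

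**Figure D5:**
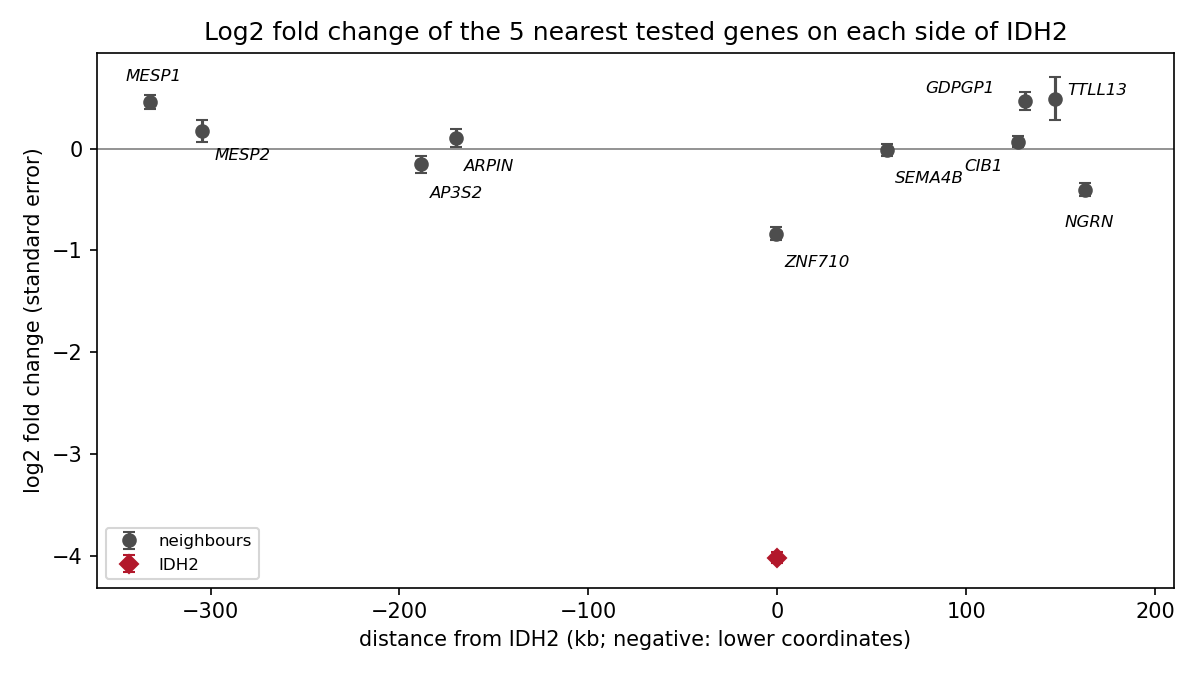
Log2 fold change of siCHKA against siNT with standard error (y axis) of IDH2 (diamond) and the 5 nearest tested genes on each side (circles), by distance from IDH2 in kilobases (x axis). IDH2 lies at -4.02, ZNF710 next to it at -0.84, and the other 9 neighbours between -0.40 and 0.49.

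Over 9628 genes whose mean level reached 10 CPM, the profiles most like that of IDH2 over the 12 libraries were those of IGF1, CHKA itself, SEC23A, SUV39H1 and RRM2. Likeness was the root mean square difference of log2 CPM, each gene relative to its own siNT mean. It was 0.260 for IGF1, a secreted growth factor, at 33.2 to 39.4 CPM in siNT and 2.53 to 2.99 CPM in siCHKA. It was 0.339 for CHKA, 0.918 for SEC23A, a coat protein of secretory vesicles with a log2 fold change of -2.72, 0.931 for SUV39H1, a histone methyltransferase with -2.73, and 0.991 for RRM2, a ribonucleotide reductase subunit with -2.62. The step from CHKA to SEC23A was larger than that from IGF1 to CHKA. The likeness is mostly the depth of the fall, since the 12 libraries form only the 2 groups. The ranking is a description only: its template is the IDH2 values that chose the set, and IGF1, CHKA and SUV39H1, at 2.77, 2.75 and 3.23 CPM on average in siCHKA, reached the mean of 10 CPM only through siNT.

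The transcripts were also searched for GCCAGAT and TGCCCTT, words of 7 bases whose presence in 3′ untranslated regions (UTRs) goes with lower RNA in these same libraries, so they are not independent of the fold changes. The median log2 fold change was -0.17 over genes whose 3′ UTR holds GCCAGAT and -0.11 over those with TGCCCTT, against 0.034 over those with neither. These medians only describe how the words were chosen, and the gene groups were not matched for UTR length. Either word was held by 5.66% of UTRs near the IDH3B length of 356 bases. Near the ACO1 length of 4658 bases the share was 51.2%. The sense strand of the 3′ UTR was read in the longest coding transcript of 12244 of the 14501 genes, from GENCODE 44 on GRCh38, and the words do not overlap in the sites found. The 3′ UTR sites of the members and 3 of the 4 CHKA sites follow, 30 bases each, 5′ to 3′, with the word in capitals. The remaining CHKA copy, a TGCCCTT before the 3′ UTR, has a 30-base site that crosses an exon junction and is not printed.
IDH2, chr15:90084121-90084150, minus strand, 3′ UTR: tttttttataaGCCAGATgtttttaaaagc
IDH2, chr15:90084012-90084041, minus strand, 3′ UTR: gtaatttatatTGCCCTTggaacacatggt
IDH3A, chr15:78171624-78171653, plus strand, 3′ UTR: tcaggaattaaGCCAGATaatcaggaccgt
ACO1, chr9:32453228-32453257, plus strand, 3′ UTR: aggatgagggaTGCCCTTcatgtgtattta
CHKA, chr11:68070807-68070836, minus strand, before the 3′ UTR: gaattaagtttGCCAGATatttctgcagaa
CHKA, chr11:68070195-68070224, minus strand, before the 3′ UTR: cagttacaatcTGCCCTTggaactggaaaa
CHKA, chr11:68053287-68053316, minus strand, 3′ UTR: gacttctccccTGCCCTTcctcctgatgga

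IDH2 was the only member with both words in its 3′ UTR, a single copy of each in 1221 bases. Of 1702 3′ UTRs of 0.8 to 1.25 times that length, 17.5% held either word and 2.23% held 2 or more copies in total. The 2.23% includes UTRs with repeated copies of the same word, and the share with both words was not taken. IDH3A, which fell, held 1 copy of GCCAGAT in 2940 bases, and ACO1, which was not called, held 1 copy of TGCCCTT in 4658 bases. IDH1, IDH3B, IDH3G, OGDH, GLUD1 and D2HGDH held neither in the 3′ UTR, and of these IDH1 fell by 0.86. Outside the 3′ UTR, OGDH held 3 copies of GCCAGAT and D2HGDH, which rose, held 1 copy of TGCCCTT. Both words were present somewhere in 9.92% of examined transcripts, IDH2 and CHKA among them. Over all examined 3′ UTRs, 10.2% held GCCAGAT, 18.4% TGCCCTT and 25.1% either.

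Around TGCCCTT, the IDH2 site and a CHKA site shared the 12 bases TGCCCTTGGAAC, a match noticed after the sites were printed. Of the 4 other examined transcripts with these 12 bases, ARHGEF2 fell by 0.44 and SOWAHB fell by 0.22 on the log2 scale, SH3RF1 rose by 0.51, and GATAD2A, the only one with them in its 3′ UTR, stood at -0.087 (edgeR adjusted p = 0.257). An exact stretch of 12 bases or more in common with CHKA was held by 63.1% of 2887 transcripts of 0.8 to 1.25 times the IDH2 length. Each of the 9 members shared 11 to 15 bases somewhere with CHKA, with the longest stretch, 15 bases, in GLUD1. The siRNA sequences are not given in the sources used here, so no comparison with them was made, and the part of these words in the fall of IDH2 was not tested.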

How the data were processed

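The authors sequenced polyadenylated RNA from 6 siCHKA and 6 siNT samples as single-end reads of 40 bases, aligned them to GRCh37 with TopHat (2.0.4 per the submitters' processing notes), counted reads per Ensembl gene with HTSeq (0.5.3p9) and deposited raw counts, not normalized, 4 tables for every sample. Groups were taken from the sample labels. These 4 tables were added up per sample. Reads outside genes (5.49% to 8.54% of uniquely aligned reads), on more than 1 gene (3.93% to 4.12%) or with several alignments were left out of library sizes and tests. Identifiers were matched to GENCODE 44 (82.8% of 54127), whose GRCh38 coordinates and lengths are printed, since a GRCh37 annotation was not used here. Counts were filtered with filterByExpr, scaled with TMM and tested with edgeR 4.0.16 in R 4.3.3 (quasi-likelihood test, no covariates, Benjamini-Hochberg adjusted p below 0.05 over all 14501 genes, prior count of 2 for log2 CPM). The standard error is the absolute log2 fold change divided by the square root of its F statistic. Sets called lower or higher were read against the share of all genes called. FPKM is CPM per kilobase of merged exons. Subunit ratios were compared with exact permutation tests over all regroupings of the libraries (Python 3.11.15, numpy 2.4.6). The 3-count floor covers counting error only. The fit was tested on simulated data.

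The members and lists were chosen with earlier results of these data known, as were the searched words. Named genes were the 9 members, CHKA, in each list at most the 4 genes per direction with the smallest p among those called, the 5 tested genes nearest to IDH2 on each side and the 5 profiles most like it. Alternatives were RLE scaling, DESeq2 1.42.0, no filter, a replicate block, odd- or even-numbered replicates, replicates 1 to 3 or 4 to 6, each replicate left out, 1 count file per sample and another gene length. Some results are not reported here.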

Additional observations from a re-analysis of the deposited data

How the results depend on the processing

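IDH1, IDH2, IDH3A, IDH3G and D2HGDH kept their direction under all 21 alternatives, and the tested 4 of them their call. The ranges were -0.90 to -0.81 for IDH1, -4.07 to -3.96 for IDH2, -0.63 to -0.52 for IDH3A, 0.42 to 0.61 for IDH3G and 0.63 to 0.70 for D2HGDH on the log2 scale. ACO1 was called at 0.36 in odd-numbered replicates, 0.28 in replicates 1 to 3 and 0.22 with 1 count file per sample, turned to -0.068 in even-numbered replicates, and ranged from 0.10 to 0.19 with 1 replicate left out. OGDH lost its call in odd-numbered replicates (-0.050) and in replicates 1 to 3 (-0.11). GLUD1 lost its call with no filter (0.13), in odd-numbered (0.16) and even-numbered replicates (0.14) and in replicates 4 to 6 (0.084). IDH3B, not called, turned to -0.018 in replicates 4 to 6, where 25 in place of 43 pathway list genes were called higher (dioxygenases 11 for 19, glutamate exchange 5 for 8, TCA cycle 3 for 6, NADPH supply 1 for 4) and genes called higher over all went from 4650 to 3509. With the longest coding transcript as length, the IDH2 share of summed IDH FPKM was 2.57% in siCHKA and 23.1% in siNT. Fits on 3 replicates a group use fewer samples, and for the other changes the cause was not tested. How many genes were tested in each alternative is not given here, so counts over all genes were not turned into shares.

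With replicate number as a block, the member log2 fold changes were -0.86 (IDH1), -4.02 (IDH2), -0.57 (IDH3A), 0.031 (IDH3B), 0.52 (IDH3G), 0.15 (ACO1), -0.18 (OGDH), 0.15 (GLUD1) and 0.66 (D2HGDH). The replicate block changed no call among the members, and it called 33 pathway list genes lower and 41 higher. Over all genes 4273 were called lower and 4494 higher in that fit. Deviations from the group mean correlated at -0.396 to 0.321 (mean -0.0363) between siCHKA and siNT samples of the same number. Between samples of different numbers they correlated at -0.298 to 0.337 (mean 0.00768). These values cannot show whether same-numbered samples shared a culture or a run, and the labels give them only a shared number. Leaving out replicates gave log2 differences of -0.61 to -0.58 (IDH3A to IDH3B), -1.11 to -1.05 (IDH3A to IDH3G) and -0.52 to -0.44 (IDH3B to IDH3G). Their values on 3 replicates a group carry no test. The lowest count of any member was 201, but CHKA rests on as few as 29 reads in siCHKA. With 1 count file per sample, 3467 genes were called lower and 3413 higher over all, in place of 4371 and 4650. The part of depth in the member results was not tested. RNA levels say nothing of enzyme amount or metabolites, which were not analysed here.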
